A study of Homo sapiens with 8 samples.

Results

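The genes described here are the ligands BMP4 and BMP2 of the bone morphogenetic protein (BMP) pathway, its receptors BMPR1A and BMPR2, the secreted antagonist GREM1, the inhibitory SMADs SMAD6 and SMAD7, and the target genes ID1, ID2 and ID3. These 10 of the 58735 genes in the deposited tables were found by symbol through release 29 of the GENCODE annotation. They were chosen by a measured value, the strongly lower level of BMP4 after TNF-α, so their TNF-α values are given below as a description, without a test. The libraries came from U2OS, an established human osteosarcoma cell line, transduced with a control shRNA (control cells) or a shRNA against WSB2 (KD cells), a substrate receptor of a ubiquitin ligase. Both kinds of cells were left unstimulated or were given TNF-α for 5 h, which makes 4 groups of 2 libraries and 8 libraries in all. Each line is a stably transduced, drug-selected population, so a control and a KD library also differ by everything else that separates the lines. The identity of the WSB2 shRNA and the concentration of TNF-α were not given in the sources used here. The labels do not say that the libraries of a group came from separate cultures, so the p-values below measure the spread between these libraries, which may be technical.

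BMPs are secreted dimers that bind a complex of type I receptors, such as BMPR1A, and type II receptors, such as BMPR2. The type I receptor phosphorylates SMAD1, SMAD5 and SMAD9, which enter the nucleus with SMAD4 and switch on target genes, among them the ID genes and the feedback inhibitors SMAD6 and SMAD7. ID proteins bind the E proteins TCF3, TCF4 and TCF12 and keep them off DNA, and the pathway is best known for driving osteoblast differentiation in bone. TNF-α acts through NF-κB, which is a different route to transcription.

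Levels are FPKM, the number of sequenced fragments scaled to the exon length of the gene and to the size of the library, so that genes can be compared with each other on this scale. Differences are on the log2(FPKM + 1) scale, with a standard error (SE) from a limma fit over all 8 libraries, and for genes that lie near 1 FPKM or lower they come out too small. A gene was called where its two-sided p-value, adjusted by the Benjamini-Hochberg method over 16528 tested genes, was under 0.05. Each library held between 15601098 and 18677023 reads, recovered from the FPKM values. The unstimulated KD libraries stood apart from the other 6 before any gene was looked at. The deposited scaling used 1.21 times their read total as library size against 0.925 to 1.03 times in the others, mitochondrial reads made up 4.10 to 4.42% against 1.11 to 2.03%, and the number of genes with any read was 26225 to 26397, where it was 22072 to 22957 in the others. Across 16520 genes the difference between KD and control without TNF-α followed the GC content of the exons (Spearman's rho -0.68, across genes, which are not independent replicates). With TNF-α the rho of the same comparison was 0.03. For comparisons that use the unstimulated KD libraries, values are therefore also given after each library was adjusted for smooth trends with GC content and exon length (called the GC and length correction below), for the 9 tested genes and wherever a named gene of the wider pathway moved by over 1.5 times or lost its call.

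The knockdown and the stimulation were visible in every library. WSB2 lay at 27.7 and 28.0 FPKM in unstimulated control cells and at 8.38 and 8.52 in unstimulated KD cells, and with TNF-α at 24.995 and 25.3 against 9.002 and 9.18. All 5 NF-κB targets kept as a check of the stimulation (NFKBIA, TNFAIP3, CXCL8, ICAM1 and BIRC3) rose in control cells, by 1.23 to 4.44 on the log2 scale. Of 8 mesenchymal and osteoblast markers, 5 were above 1 FPKM in every library, while the osteoblast genes SP7 and BGLAP and the collagen gene COL1A2 were under 1 in all. All 3 epithelial, 3 leukocyte and 2 endothelial markers were under 1 FPKM in every library, and CD68 was at 0.

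The promoter windows shown are those of the ligand that chose the list and of 2 targets of different behaviour, SMAD6, whose values came close to the pattern of BMP4, and ID1, whose values did not. Each holds the 250 bases before an annotated start in RefSeq (GRCh38.p14), written 5′ to 3′ on the strand of the gene, at chr14:53955051-53955300 and chr14:53953396-53953645 (minus strand, the farthest upstream and the farthest downstream of 3 BMP4 starts), chr15:66701986-66702235 (plus strand) and chr20:31605039-31605288 (plus strand). Capitals mark matches on either strand to GGCGCC, the core of a known SMAD1 and SMAD5 binding motif, to CAGAC or GTCTG, the SMAD box, and to an NF-κB outline of GGG, any 5 bases and CC.
BMP4, upstream start: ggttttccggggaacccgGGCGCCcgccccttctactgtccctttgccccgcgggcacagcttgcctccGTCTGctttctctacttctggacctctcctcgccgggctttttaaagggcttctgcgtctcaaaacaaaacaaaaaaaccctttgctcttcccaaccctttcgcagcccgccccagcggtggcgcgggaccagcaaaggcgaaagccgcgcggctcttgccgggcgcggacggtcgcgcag
BMP4, downstream start: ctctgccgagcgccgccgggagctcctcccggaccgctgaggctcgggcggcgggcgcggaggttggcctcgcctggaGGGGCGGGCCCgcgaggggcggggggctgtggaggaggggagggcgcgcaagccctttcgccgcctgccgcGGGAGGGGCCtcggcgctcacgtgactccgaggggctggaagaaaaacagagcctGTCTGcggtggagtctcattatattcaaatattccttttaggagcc
SMAD6: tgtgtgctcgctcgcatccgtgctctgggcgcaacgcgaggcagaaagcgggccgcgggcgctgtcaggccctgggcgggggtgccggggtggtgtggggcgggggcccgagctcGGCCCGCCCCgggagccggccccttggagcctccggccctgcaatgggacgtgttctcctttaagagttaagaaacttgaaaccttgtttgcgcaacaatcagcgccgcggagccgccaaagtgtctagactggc
ID1: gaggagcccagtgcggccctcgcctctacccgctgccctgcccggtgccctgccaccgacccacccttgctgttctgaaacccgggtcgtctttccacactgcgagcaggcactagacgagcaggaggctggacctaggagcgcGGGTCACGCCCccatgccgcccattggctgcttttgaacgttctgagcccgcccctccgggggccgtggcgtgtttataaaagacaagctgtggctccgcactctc

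The upstream BMP4 window held GGCGCC and GTCTG and no match to the NF-κB outline, the middle one (not shown) held none of the motifs, and the downstream one held GTCTG and 3 matches to that outline, of which 2 overlap. Of the motifs as searched, the SMAD6 window held only a match to the outline, and the capitals of ID1 are 2 overlapping matches to it. The SMAD box was searched only as CAGAC or GTCTG. The letters gtctagac near the end of the SMAD6 window, which hold the shorter GTCT and AGAC, are therefore not marked. Windows were found for 9 of the 10 genes, 14 windows in all, and none was found for BMP2. GGCGCC was in 3 of the 14 windows, against 16.38% of the windows of the same length at all 35116 RefSeq starts. CAGAC or GTCTG was in 8 (38% of all windows) and the NF-κB outline in 11 (54.43% of all windows). GGCGCC was in none of the windows of ID1, ID2, ID3, SMAD6 and SMAD7. A match of letters is not a binding site, and its absence from these windows says nothing of the factor.

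BMP4 (ENSG00000125378, chromosome 14 from 53949736 to 53958761 on the minus strand) encodes the BMP ligand with the higher level in unstimulated cells. It lay at 39.9 and 34.0 FPKM in unstimulated control cells and at 10.5 and 11.1 after TNF-α. In KD cells it lay at 23.6 and 21.3 FPKM without and at 9.63 and 9.09 with TNF-α. The 4 groups did not overlap, and both TNF-α groups were below both unstimulated groups. With TNF-α the level was 3.43-fold lower in control cells (log2 difference -1.68, SE 0.10), the sixth lowest log2 difference of 16528 genes, and 2.40-fold lower in KD cells (log2 difference -1.18, SE 0.10, and -1.58 after the GC and length correction). In bulk libraries, fewer cells that make a transcript and less of it per cell cannot be told apart.

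BMP2 (ENSG00000125845, chromosome 20 from 6767664 to 6780280 on the plus strand), the closest relative of BMP4, went the other way. It lay at 3.52 and 2.92 FPKM in unstimulated control cells and at 13.2 and 14.4 after TNF-α, and in KD cells at 3.98 and 3.86 FPKM without and 17.98 and 17.0 with TNF-α. Both TNF-α groups were far above the unstimulated groups. With TNF-α the level was 4.28-fold higher in control cells (log2 difference 1.81, SE 0.10) and 4.46-fold higher in KD cells (log2 difference 1.91, SE 0.10, and 1.59 after the correction).

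The opposite moves changed which ligand predominated. BMP2 made up 8.11 and 7.91% of the summed FPKM of both ligands in unstimulated control cells and 55.7 and 56.5% after TNF-α. In KD cells its share was 14.4 and 15.3% without and 65.1% in both libraries with TNF-α. The sum itself was 43.4 and 36.9 FPKM in unstimulated control cells and between 23.6 and 27.6 in the other 6 libraries, so the sums of the KD libraries with and without TNF-α overlapped.

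**Figure D1:**
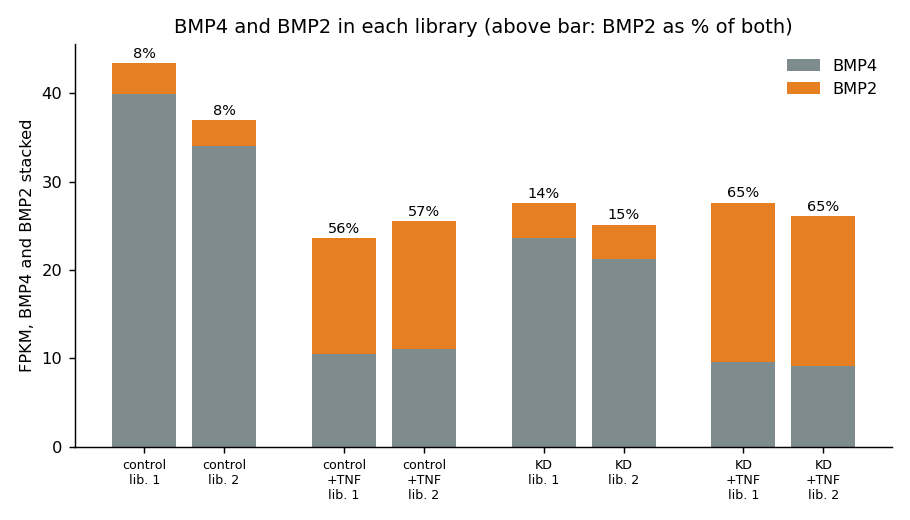
Stacked bars give the FPKM of BMP4 (grey) and BMP2 (orange) in each of the 8 libraries, and the number above each bar is BMP2 as a percentage of both. BMP4 is the larger part of every unstimulated bar, and BMP2 is the larger part of every TNF-α bar.

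The receptors behaved differently from the ligands, and BMPR1A was low. BMPR1A (ENSG00000107779, chromosome 10 from 86756601 to 86932838 on the plus strand), a type I receptor, lay at 1.22 and 1.57 FPKM in unstimulated control cells and at 0.969 and 0.926 with TNF-α. Its level in KD cells was 2.63 and 3.02 FPKM without and 0.898 and 0.981 with TNF-α. The highest values were thus those of the unstimulated KD libraries, and the 2 TNF-α groups overlapped. The log2 difference with TNF-α was -0.29 (SE 0.11) in control and -0.98 (SE 0.11) in KD cells, where it was -0.37 after the GC and length correction.

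BMPR2 (ENSG00000204217, chromosome 2 from 202376936 to 202567751 on the plus strand), the type II receptor, lay at 3.81 and 6.41 FPKM in unstimulated control cells and at 5.77 and 5.41 with TNF-α. The KD libraries held it at 12.1 and 14.0 FPKM without and at 5.54 and 5.51 with TNF-α. Only the unstimulated KD libraries were set off from the others, and the unstimulated control libraries lay on either side of the TNF-α libraries. The log2 difference with TNF-α was 0.14 (SE 0.19) in control and -1.10 (SE 0.19) in KD cells, where the correction left -0.35. BMPR1A and BMPR2 have the lowest GC content of the 9 tested genes, 40.6 and 37.6% in their longest transcripts.

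GREM1 (ENSG00000166923, chromosome 15 from 32717974 to 32745107 on the plus strand), which encodes a secreted protein that binds and blocks BMPs, had 9 reads in all 8 libraries together and was not tested. Its reads were 1 and 2 in unstimulated control cells, 3 and 1 in unstimulated KD cells, 0 and 0 in control cells with TNF-α, and 2 and 0 in KD cells with TNF-α. The highest level was 0.0104 FPKM. A count of 0 allows up to 3 reads in a library, for counting error only, so no difference was detectable at this depth.

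Of the inhibitory SMADs, SMAD6 had the pattern of BMP4 and SMAD7 had not. SMAD6 (ENSG00000137834, chromosome 15 from 66702228 to 66782848 on the plus strand), which blocks BMP receptors and SMAD1 in particular, lay at 11.1 and 11.6 FPKM in unstimulated control cells and at 4.51 and 4.71 with TNF-α. Its KD values were 8.35 and 8.49 FPKM without and 3.53 and 4.09 with TNF-α. As for BMP4, the 4 groups did not overlap and came in the same order. The level with TNF-α was 2.47-fold lower in control cells (log2 difference -1.14, SE 0.09) and 2.21-fold lower in KD cells (log2 difference -0.97, SE 0.09, and -1.40 after the correction).

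SMAD7 (ENSG00000101665, chromosome 18 from 48919853 to 48952052 on the minus strand), which inhibits both BMP and TGF-β receptors, lay at 11.3 and 12.5 FPKM in unstimulated control cells and at 10.5 and 11.6 with TNF-α. The KD values were 11.4 and 9.69 FPKM without and 13.2 and 13.4 with TNF-α. The control groups overlapped with each other (log2 difference -0.10, SE 0.10), and in KD cells the TNF-α libraries were higher (log2 difference 0.31, SE 0.10). The latter difference was -0.21 after the GC and length correction and -0.04 with libraries scaled to their read totals, so its direction depends on the processing. The ratio of SMAD7 to SMAD6 was 1.01 and 1.07 in unstimulated control cells, 2.32 and 2.46 in control cells with TNF-α, 1.36 and 1.14 in unstimulated KD cells, and 3.74 and 3.26 in KD cells with TNF-α.

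The 3 ID genes, the standard transcriptional readout of BMP signalling, did not move as a block. ID1 (ENSG00000125968, chromosome 20 from 31605283 to 31606515 on the plus strand) lay at 765 and 598 FPKM in unstimulated control cells and at 388 and 406 with TNF-α. In KD cells it lay at 341 and 341 FPKM without and at 383 and 394 with TNF-α. The unstimulated control libraries were the high ones, and the other 6 lay close together. The level with TNF-α was 1.72-fold lower in control cells (log2 difference -0.77, SE 0.14). In KD cells the log2 difference was 0.19 (SE 0.14), and it turned to -0.34 after the GC and length correction, to -0.19 with libraries scaled to their read totals and to -0.02 with upper-quartile scaling.

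ID2 (ENSG00000115738, chromosome 2 from 8678845 to 8684453 on the plus strand) had the largest log2 difference of the list with TNF-α in control cells. It lay at 14.8 and 13.8 FPKM in unstimulated control cells and at 2.68 and 3.09 with TNF-α, and in KD cells at 10.6 and 9.52 FPKM without and at 2.13 and 2.35 with TNF-α. All TNF-α libraries were far below all unstimulated libraries. The level with TNF-α was 4.96-fold lower in control cells (log2 difference -1.98, SE 0.10), the fourth lowest log2 difference of 16528 genes, and 4.48-fold lower in KD cells (log2 difference -1.77, SE 0.10, and -2.14 after the correction). ID2 overlaps ID2-AS1 on the opposite strand, and since the strand setting of the counting was not given in the sources used here, reads of the 2 genes cannot be told apart. ID2-AS1 was counted with 38 reads in all 8 libraries, against 2245 for ID2.

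ID3 (ENSG00000117318, chromosome 1 from 23557918 to 23559794 on the minus strand) lay at 342 and 254 FPKM in unstimulated control cells and at 241 and 261 with TNF-α, which overlap (log2 difference -0.23, SE 0.15). In KD cells it lay at 139 and 125 FPKM without and at 244 and 253 with TNF-α, 1.88-fold higher with TNF-α (log2 difference 0.91, SE 0.15). Only the unstimulated KD libraries were set off, at the low end. After the GC and length correction the difference in KD cells was 0.40.

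**Figure D2:**
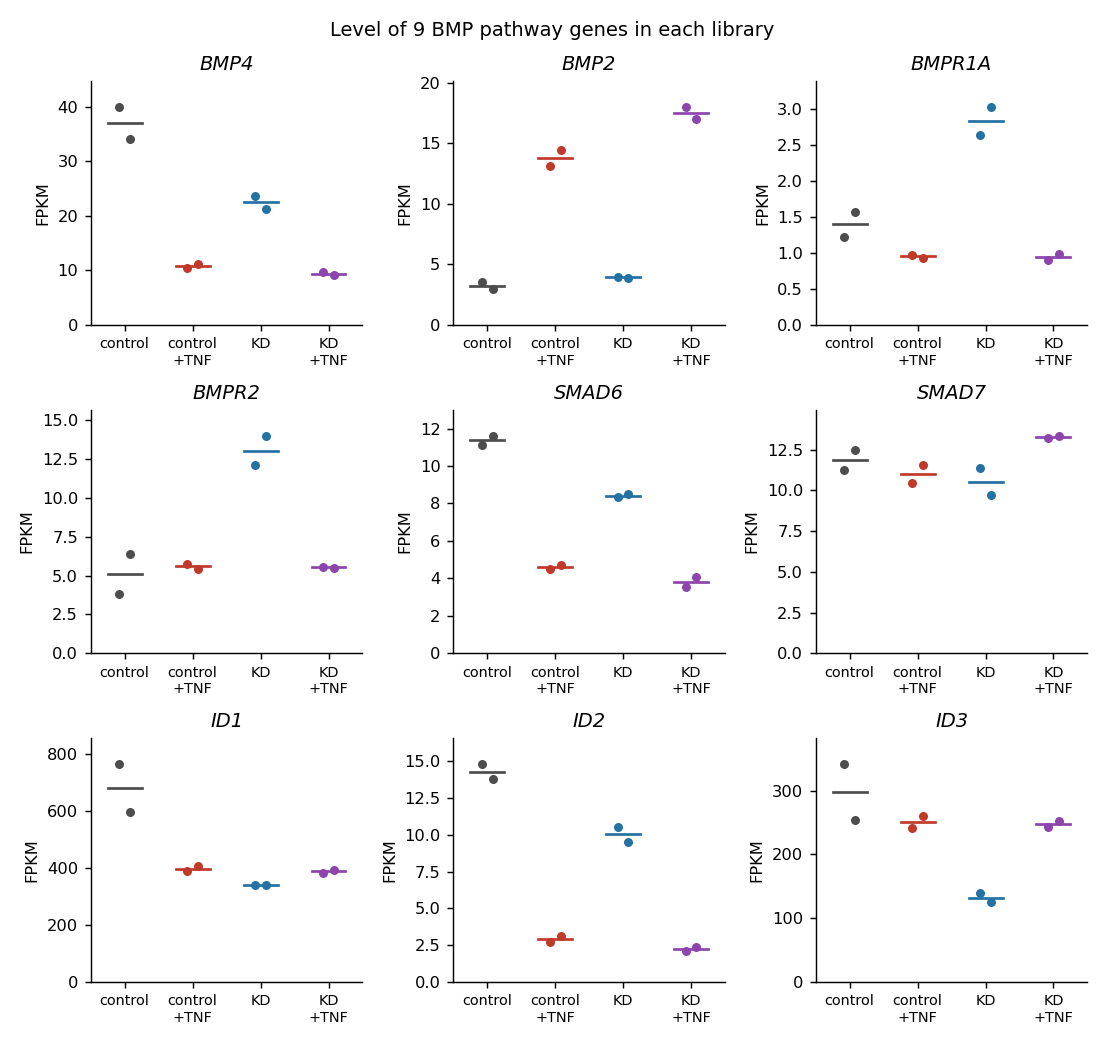
Each panel gives the FPKM (axis from 0) of 1 gene in the 2 libraries of each group as points, with their mean as a bar. In BMP4, SMAD6 and ID2 both TNF-α groups lie below both unstimulated groups, in BMP2 they lie above, and in BMPR1A, BMPR2 and ID3 the unstimulated KD libraries are the ones set off.

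With TNF-α in control cells the libraries did not overlap for 6 of the 9 tested genes, 1 higher and 5 lower, against 42.5% of all tested genes (22.6% higher and 19.9% lower). In KD cells they did not overlap for 9 of 9, 4 higher and 5 lower, against 84.8% of all tested genes (41.3% higher and 43.5% lower). The median log2 difference in control cells was -0.29 over the 9 genes and -0.26 without BMP4, against 0.0085 over all genes tested. Nothing is read from these counts and medians, because TNF-α values chose the list.

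Set against BMP4 across all 8 libraries, the targets fell into different patterns. Pearson's r of log2(FPKM + 1) with BMP4 was 0.99 for ID2 and 0.98 for SMAD6, 0.66 for ID1, -0.04 for ID3 and -0.28 for SMAD7. It was -0.96 for BMP2, 0.53 for BMPR1A and 0.14 for BMPR2. These values describe 8 points that form 4 pairs and share their libraries and scaling, and they carry no test. Among 4878 tested genes that span at least 1 on the log2 scale, the 5 most like BMP4 were TMSB4XP8 (r 0.99), GPER1 (0.99), ID2 (0.99), SMAD6 (0.98) and HRCT1 (0.98). TMSB4XP8 is a pseudogene of the TMSB4X family, and its counts may hold reads of near-identical copies. The 5 most like ID1 were VASN (r 0.98), GADD45B (0.98), HIST1H4I (0.97), AC025575.2 (0.97) and FAM171A2 (0.96), with none of the list among them. SMAD7 spans less than 1 on this scale, so it was not a candidate in either search (its r with ID1 was 0.16).

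The comparison of KD with control cells asks whether the lower, but not absent, WSB2 goes with a different level of these genes. The list was chosen by another comparison, but that one holds the same control values of BMP4, so the KD difference of BMP4 is given as a description. Without TNF-α, 7 of the 9 tested genes were called, or 6 of 8 without BMP4, against 60.1% of all genes tested (29.8% higher and 30.2% lower). BMPR1A and BMPR2 rose, and SMAD6, ID1, ID2 and ID3 fell. BMP4 was 1.65-fold lower in KD cells (log2 difference -0.69, SE 0.10). ID1 was 2.00-fold lower (log2 difference -0.99, SE 0.14, adjusted p = 0.00063 in limma) and ID3 2.26-fold lower (log2 difference -1.16, SE 0.15, adjusted p = 0.00044). ID2 and SMAD6 were lower by less, at log2 differences of -0.47 (SE 0.10, adjusted p = 0.0053) and -0.39 (SE 0.09, adjusted p = 0.0072). BMPR1A was 2.02-fold higher (log2 difference 0.68, SE 0.11, adjusted p = 0.0013) and BMPR2 2.56-fold higher (log2 difference 1.23, SE 0.19, adjusted p = 0.00089). BMP2, at a log2 difference of 0.22 (adjusted p = 0.087), and SMAD7, at -0.16 (adjusted p = 0.21), were not called. BMP2 was called higher without the first unstimulated control library (0.33, adjusted p = 0.019), with upper-quartile scaling (0.32, adjusted p = 0.023) and with libraries scaled to their read totals (0.45, adjusted p = 0.0033).

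The receptors, which are poor in GC, were the ones that were higher, and the genes that were lower have a GC content of 53.3 to 58.9%. After the GC and length correction BMP4 was at -0.31, and ID1 (-0.45, adjusted p = 0.0031), ID3 (-0.65, adjusted p = 0.000985) and BMPR2 (0.41, adjusted p = 0.029) were still called in the same direction. ID2 (-0.11, adjusted p = 0.31), SMAD6 (-0.09, adjusted p = 0.42) and BMPR1A (-0.0024, adjusted p = 0.98) were not. With that correction BMP2 (0.51, adjusted p = 0.0020) and SMAD7 (0.29, adjusted p = 0.027) were called higher. With the scaling to read totals, which moved the median of all genes by 0.13, ID2 (-0.21, adjusted p = 0.10) and SMAD6 (-0.14, adjusted p = 0.27) were not called either.

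**Figure D3:**
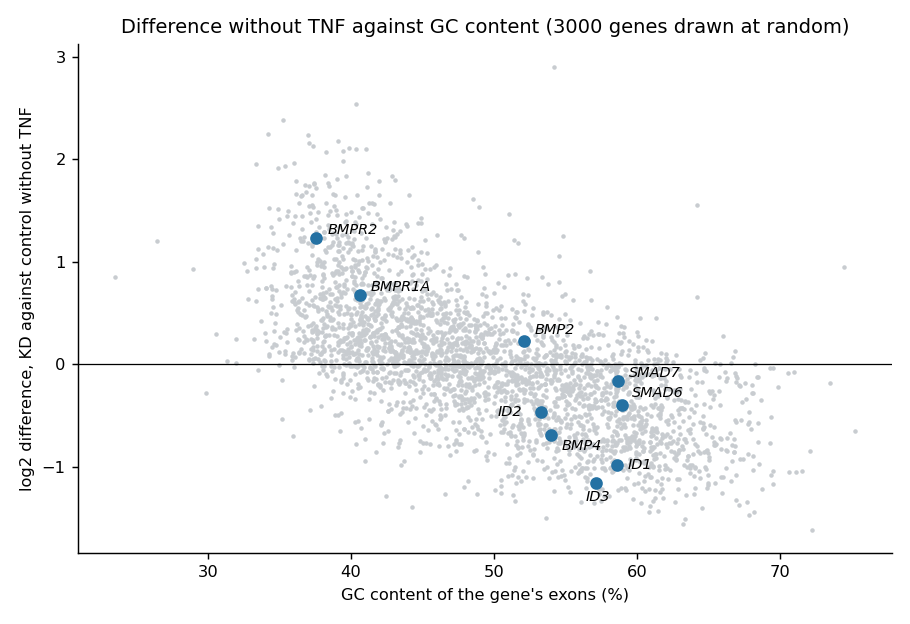
Each grey point is 1 of 3000 tested genes drawn at random, placed by the GC content of the exons in its longest transcript (horizontal, percent) and its log2 difference between KD and control cells without TNF-α (vertical), and the blue points are the 9 tested genes. BMPR2 and BMPR1A lie at the left among genes that were higher in KD cells, and ID1, ID3 and SMAD6 lie at the right among genes that were lower.

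With TNF-α, none of the 9 genes was called between KD and control cells, BMP4 included, against 0.115% of all genes tested, in limma as well as with voom on recovered reads. At an unadjusted p under 0.05 there were 4 of the 9, against 1348 of the 16528 genes tested. They were BMP2 (log2 difference 0.32, SE 0.10, adjusted p = 0.40), SMAD7 (0.25, SE 0.10, adjusted p = 0.58), ID2 (-0.26, SE 0.10, adjusted p = 0.58) and SMAD6 (-0.22, SE 0.09, adjusted p = 0.60). In each of these 4, and in BMP4 (-0.19, SE 0.10), the 2 KD libraries lay outside the range of the 2 control libraries, which held for 46.2% of all genes tested. ID1, ID3, BMPR1A and BMPR2 overlapped between KD and control cells and had log2 differences between -0.03 and -0.0064, with SEs of 0.11 to 0.19.

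**Figure D4:**
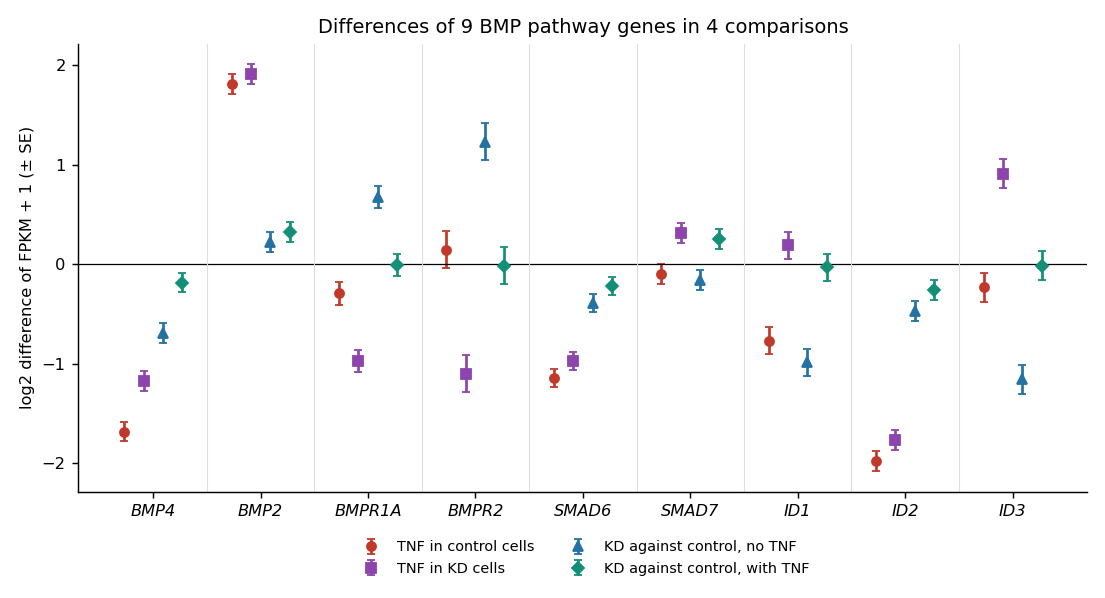
Log2 differences of FPKM + 1 (vertical, bars give ± 1 SE) are plotted for 9 genes in 4 comparisons, TNF-α against none in control cells (circles) and in KD cells (squares), and KD against control without (triangles) and with TNF-α (diamonds). The diamonds lie between -0.26 and 0.32, while the triangles reach from -1.16 for ID3 to 1.23 for BMPR2.

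The difference of the TNF-α effect between KD and control cells was tested for the 8 tested genes other than BMP4. It was called for 5, against 46.1% of all genes tested (23.8% with a higher and 22.3% with a lower value in KD cells). ID3 (1.14, SE 0.21, adjusted p = 0.0041), ID1 (0.96, SE 0.19, adjusted p = 0.0062) and SMAD7 (0.41, SE 0.14, adjusted p = 0.048) had the higher log2 difference with TNF-α in KD cells. BMPR2 (-1.25, SE 0.26, adjusted p = 0.0072) and BMPR1A (-0.68, SE 0.16, adjusted p = 0.0098) had the lower one. BMP2 (0.10, SE 0.14, adjusted p = 0.60), ID2 (0.21, SE 0.15, adjusted p = 0.27) and SMAD6 (0.17, SE 0.13, adjusted p = 0.32) were not called. In arithmetic this value is the KD difference with TNF-α minus the KD difference without it, and the unstimulated libraries of both lines enter it. For ID1 the unstimulated control libraries were those set off from the other 6, and for ID3, BMPR1A and BMPR2 those of KD cells were. The SMAD7 call was not made with no filter on low values (adjusted p = 0.092), with upper-quartile scaling (0.28, adjusted p = 0.15), with scaling to read totals (0.13, adjusted p = 0.52), with the replicate block (adjusted p = 0.068) or with any of 6 libraries left out in turn (adjusted p = 0.063 to 0.16, lowest without the second control library with TNF-α). After the GC and length correction 2 of the 5 were called, ID3 (0.65, adjusted p = 0.0085) and ID1 (0.44, adjusted p = 0.024), against 35.6% of all genes tested.

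The wider BMP pathway, 49 further genes of which 35 were tested, was not used to choose the list. These genes were themselves listed with earlier results of these data known, so the counts below are not independent support. With TNF-α in control cells 9 of the 35 were called, 3 higher and 6 lower, against 4.24% of all genes tested (3.1% higher and 1.14% lower). Their median log2 difference was 0.0027. Of 5 other targets tested, 3 were called, all lower. ID4, the fourth ID gene, fell from 25.8 and 24.99 FPKM to 11.7 and 12.4 (log2 difference -1.01, SE 0.11, adjusted p = 0.0026). HEY1, a transcriptional repressor, fell from 1.63 and 1.66 to 0.797 and 0.702 FPKM (log2 difference -0.60, SE 0.10, adjusted p = 0.019), and ATOH8, also a transcription factor, fell from 0.516 and 0.542 to 0.176 and 0.160 FPKM (log2 difference -0.39, SE 0.06, adjusted p = 0.011). The homeobox genes MSX1 (0.42, SE 0.12), whose libraries with TNF-α lay above those without, and MSX2 (0.04, SE 0.13) did not pass the test.

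Of 12 antagonists and inhibitors tested, 3 were called. SMURF1, a ubiquitin ligase that marks BMP SMADs and receptors for degradation, rose from 10.1 and 12.03 to 17.1 and 16.6 FPKM (log2 difference 0.57, SE 0.10, adjusted p = 0.022). NOG, the secreted antagonist noggin, fell from 81.3 and 69.2 to 53.7 and 54.9 FPKM (log2 difference -0.46, SE 0.10, adjusted p = 0.044). SOSTDC1, another secreted antagonist, was at 0.162 and 0.164 FPKM in unstimulated control cells and listed at 0 in all TNF-α libraries (adjusted p = 0.041). Of its 40 reads in all 8 libraries, 6 and 7 were in unstimulated control cells and 13 and 14 in unstimulated KD cells. It passed the filter only through the unstimulated KD libraries, so its calls in comparisons with those libraries carry no weight. The call in control cells was lost in 12 of 17 alternatives. Counts of called pathway genes include SOSTDC1 where it was called.

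Of 8 further receptors and co-receptors tested, RGMB rose and RGMA fell, which are related co-receptors that bind BMPs directly. RGMB went from 1.94 and 1.84 to 4.62 and 4.15 FPKM (log2 difference 0.90, SE 0.10, adjusted p = 0.0023) and RGMA from 1.44 and 1.40 to 0.775 and 0.780 FPKM (log2 difference -0.45, SE 0.08, adjusted p = 0.019). Of 6 further ligands tested, BMP5 rose from 5.42 and 4.82 to 8.86 and 8.66 FPKM (log2 difference 0.67, SE 0.09, adjusted p = 0.0054). None of the 4 signal-carrying SMADs, SMAD1, SMAD5, SMAD9 and SMAD4, was called by limma, with log2 differences between -0.42 and 0.14. Of the 4, 1 had an unadjusted p under 0.05, as had 2899 of the 16528 genes tested. Of these 9 calls, those of ID4 and RGMB were also made with each library left out in turn and when only the 4 control libraries were fitted. The count was 2 in the latter fit and without either control library with TNF-α, 5 and 4 without the first and the second KD library with TNF-α, and 6 without both unstimulated KD libraries. These fits called between 1.39 and 2.68% of all genes tested.

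**Figure D5:**
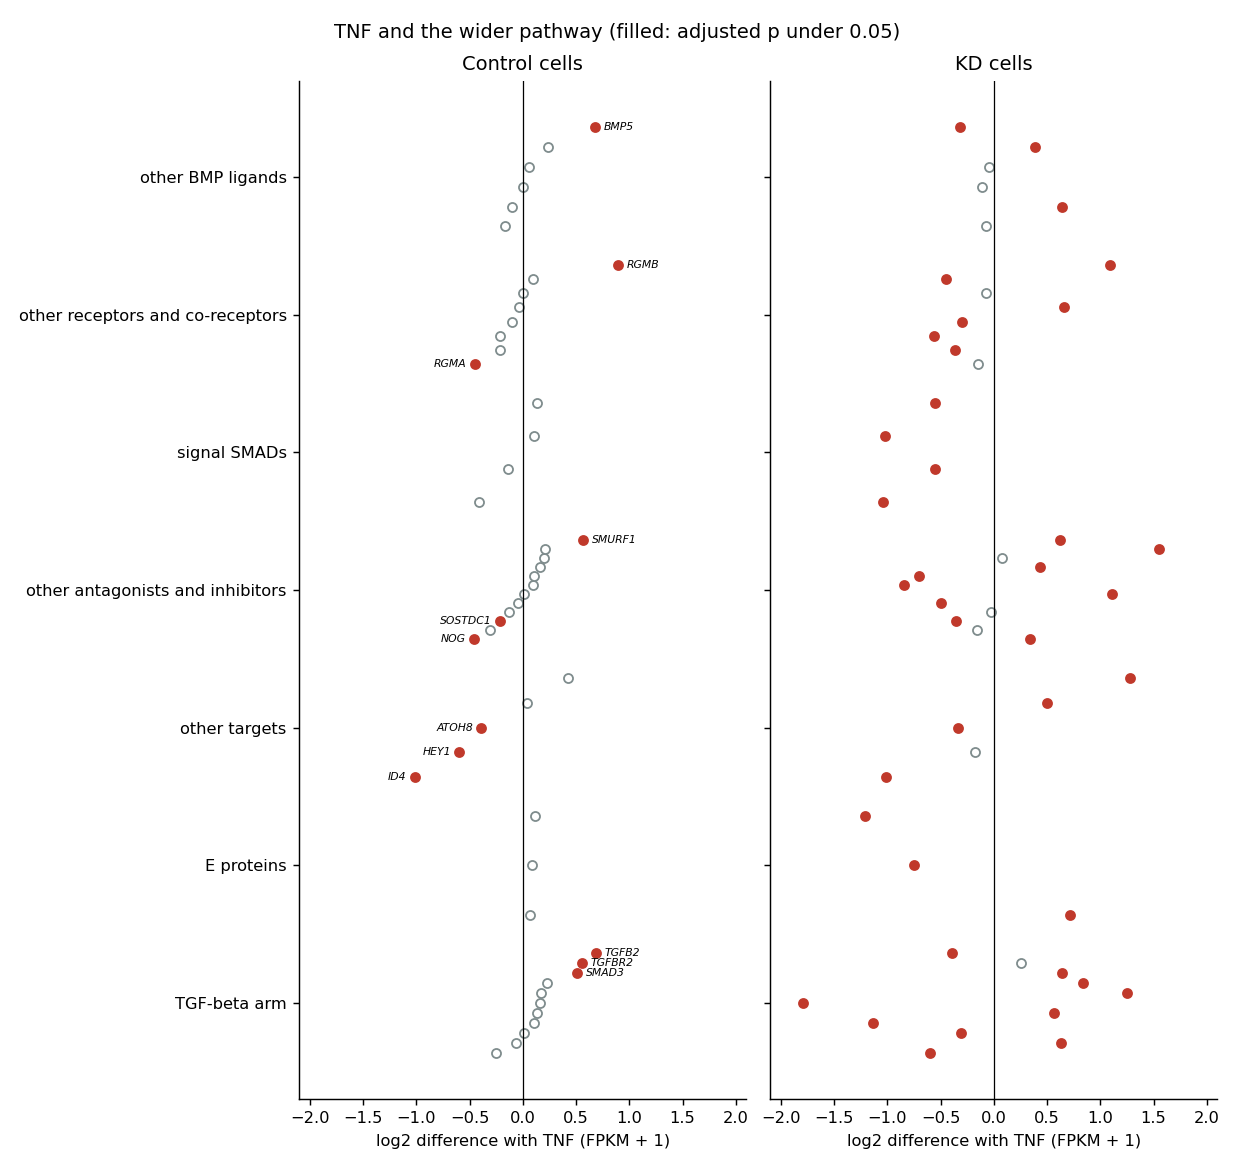
Each point is a tested gene of the lists named at the left, placed by its log2 difference with TNF-α in control cells (left panel) or KD cells (right panel), with each gene on the same row in both panels, and filled points passed an adjusted p under 0.05. In control cells 9 of the 35 BMP pathway genes and 3 of the 11 genes of the TGF-β arm are filled, and ID4 lies farthest to the left.

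With TNF-α in KD cells 26 of the 35 genes were called, 11 higher and 15 lower, against 62.5% of all genes tested (31.1% higher and 31.4% lower). After the GC and length correction 8 were higher and 10 lower, against 56.9% of all genes tested called in either direction. ID4 (-1.01, SE 0.11, adjusted p = 0.00021) and ATOH8 (-0.34, SE 0.06, adjusted p = 0.0015, and -0.71 after the correction) fell in these cells too, and RGMB rose (1.09, SE 0.10, adjusted p = 9.6e-05). The antagonist NBL1 had the largest rise of the 35 (1.55, SE 0.19, adjusted p = 0.00031, and 0.85 after the correction), and FSTL3, which binds activins and related ligands, rose by 1.11 (SE 0.12, adjusted p = 0.00017, and 0.42 after the correction). SMURF1 rose (0.62, SE 0.10, adjusted p = 0.0011, and 0.40 after the correction) but was not called with libraries scaled to their read totals (0.26, adjusted p = 0.078).

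The 4 signal-carrying SMADs fell in KD cells with TNF-α, by 0.56 to 1.04 on the log2 scale. After the correction SMAD9 (-0.74) and SMAD5 (-0.27, adjusted p = 0.027) were still called, and SMAD1 and SMAD4 were at 0.03 each. MSX1 rose by 1.28 (SE 0.12, adjusted p = 0.00010, and 0.68 after the correction). MSX2 rose by 0.50 (SE 0.13, adjusted p = 0.0095), which was not called with upper-quartile scaling (0.33, adjusted p = 0.0501) or scaling to read totals (0.19, adjusted p = 0.22). BMP5 fell (-0.32, SE 0.09, adjusted p = 0.013) and turned to 0.31 with the correction, and NOG, higher by 0.34 (SE 0.10, adjusted p = 0.017), turned to -0.25. The calls of BMP5, SMAD1 and NOG were lost without the second unstimulated KD library or either KD library with TNF-α, and that of MSX2 without the first KD library of either group (adjusted p = 0.0503 to 0.11).

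Between KD and control cells without TNF-α 25 of the 35 were called, 14 higher and 11 lower, against 60.1% of all genes tested. With the correction 8 were higher and 10 lower, against 52.3% of all genes tested called in either direction. The 4 signal-carrying SMADs were all called higher, from 0.37 for SMAD4 to 0.95 for SMAD5, and none was called higher after the correction. It left SMAD5 at 0.15 (adjusted p = 0.18) and SMAD9 at 0.24 (adjusted p = 0.093), and turned SMAD1 to -0.03 and SMAD4 to -0.30. The SMAD4 call was also lost without the first unstimulated control library or either unstimulated KD library, and that of SMAD1 without the first unstimulated control or the second unstimulated KD library (adjusted p = 0.057 to 0.13). MSX1 (-0.70, SE 0.12, adjusted p = 0.0015) and MSX2 (-0.69, SE 0.13, adjusted p = 0.0022) fell, and after the correction MSX1 was at -0.11 (adjusted p = 0.21) and MSX2 at -0.57 (adjusted p = 0.0045). ATOH8 fell (-0.19, SE 0.06, adjusted p = 0.026), turned to 0.10 with the correction, and was not called without either unstimulated control library or the first unstimulated KD library (adjusted p = 0.056 to 0.14). With TNF-α none of the 35 was called between KD and control cells by limma, and 0 were called in the voom fit. In limma 5 had an unadjusted p under 0.05, against 1348 of the 16528 genes tested.

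The E proteins, which ID proteins bind, were not called with TNF-α in control cells by limma (log2 differences 0.06 to 0.12, none at an unadjusted p under 0.05). The summed FPKM of ID1, ID2 and ID3 was 21.7 and 17.1 times that of TCF3, TCF4 and TCF12 in unstimulated control cells and 12.3 and 11.9 times with TNF-α. It was 13.0 and 12.2 times in unstimulated KD cells and 13.9 and 14.0 times in KD cells with TNF-α. The unstimulated control libraries thus had the highest ratio, and ID1 made up between 60.6 and 71.7% of the ID sum in every library. Without TNF-α, TCF12 (1.30, SE 0.16, adjusted p = 0.00042) and TCF4 (0.75, SE 0.10, adjusted p = 0.00062) rose in KD cells and TCF3 fell (-0.90, SE 0.08, adjusted p = 0.00017), and after the correction TCF12 was at 0.67, TCF3 at -0.45 and TCF4 at -0.07.

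Of 11 genes of the TGF-β arm, the sister pathway that shares SMAD4, 3 were called higher with TNF-α in control cells and none lower. Of all genes tested, 3.1% were called higher and 1.14% lower. They were the ligand TGFB2 (0.68, SE 0.14, adjusted p = 0.041), the receptor TGFBR2 (0.55, SE 0.12, adjusted p = 0.046) and the signal carrier SMAD3 (0.51, SE 0.10, adjusted p = 0.033). Over 18 alternatives, leave-outs included, the call was lost in 12 for TGFB2, 13 for TGFBR2 and 11 for SMAD3. Among these, none of the 3 was called when only the 4 control libraries were fitted (adjusted p = 0.17 to 0.19). The same held without both unstimulated KD libraries (adjusted p = 0.073 to 0.090). The TGF-β targets SKIL, PMEPA1, CCN2 and TGFBI were not called in control cells. SMAD7, which answers to both pathways, overlapped between these groups, as given above.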

How the data were processed

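Bulk RNA-seq of total RNA from U2OS cells was analysed, 4 groups of 2 libraries grouped by their labels. The authors deposited FPKM values for 58735 genes in each library, made by a sequencing company on an Illumina instrument. The submitters' processing notes name CASAVA 1.8, fastp, HISAT2 2.0.5, featureCounts 1.5.0-p3 and DESeq2 1.20.0, and the builds GRCh38 and hg38. The study's methods name edgeR for its own comparison, which was not repeated here, since FPKM values are not counts. All 58735 genes matched the positions of GENCODE release 29. Multiplied by gene length, 100% of the values gave whole reads (tolerance 0.05), and these reads served for depth, the filter and a voom fit. Depth was 15601098 to 18677023 reads per library.

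The 10 genes and the wider lists were chosen with earlier results of these data known. A gene was tested if 2 or more libraries held the equivalent of 10 reads (scaled to the median depth) and all libraries together held 15, which was so for 16528 genes. Differences of log2(FPKM + 1) were fitted with limma 3.58.1 in R 4.3.3, with a mean per group over 8 libraries (4 residual degrees of freedom) and a trend of the variance on mean expression. Benjamini-Hochberg adjustment of the two-sided p-values ran over all genes tested. The script was tested on simulated data. TNF-α values of the 10 genes and the interaction of BMP4 were not tested, because they chose the list, and BMP4 is printed without a p-value throughout. Genes named from the wider lists were taken from those called with no overlap of the libraries, at most 5 per direction, list and comparison by size; in comparisons with KD cells not all of these are named. MSX1, MSX2, the signal-carrying SMADs and the TGF-β targets are also named where they were not called, after their values were seen. A gene of the TGF-β list is not reported here.

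Same-numbered libraries had a correlation of their deviations above 0.1 in 1 of 6 pairs of groups. That pair was unstimulated control with unstimulated KD cells (0.35), the groups of the comparison without TNF-α. The numbers were not taken as pairs in the main fit. Alternatives were a pseudocount of 0.1, no filter, a mean of at least 1 FPKM, upper-quartile and total-read scaling, voom, a correction of each library by splines with 5 degrees of freedom on GC content and on length, only the libraries compared, a replicate block, and leaving out each library in turn. A fit without both unstimulated KD libraries was added after the data were seen. Promoter windows came from RefSeq tables of GRCh38.p14, and windows that lie mainly in annotated exons are not printed. Reads, windows and plots were made in Python 3.11.15 (matplotlib 3.10.9, numpy 2.4.6, pandas 2.3.3).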

Additional observations from a re-analysis of the deposited data

Results flagged for a closer look

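The results below are those in which the log2 difference with TNF-α in KD cells minus that in control cells was called by the interaction term of limma, among the genes of the list other than BMP4, the wider BMP pathway, the E proteins, and the TGF-β genes called in control cells. Such a difference was called for 46.1% of all genes tested (35.6% after the GC and length correction), and the unstimulated libraries of both lines enter it. Those of KD cells had the depth scaling and GC relation given above, and for ID1 those of control cells were set off from the other 6. Their part in each value was not tested beyond the GC and length correction.

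In the list itself the values were 1.14 for ID3, 0.96 for ID1, 0.41 for SMAD7, -0.68 for BMPR1A and -1.25 for BMPR2. Of the other ligands, BMP5 was at -0.996 (-0.39 after the correction, adjusted p = 0.027) and BMP7 at 0.74 (0.37, adjusted p = 0.076). The type II receptor ACVR2B was at -0.54 (-0.21, adjusted p = 0.19) and the co-receptor ENG at 0.70 (0.09, adjusted p = 0.62).

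Among the signal-carrying SMADs, SMAD5 was at -1.12 (-0.32 after the correction, adjusted p = 0.073), SMAD1 at -0.69 (-0.09, adjusted p = 0.75) and SMAD9 at -0.63 (-0.31, adjusted p = 0.14). Of the antagonists and inhibitors, NBL1 was at 1.34 (0.69, adjusted p = 0.029), FSTL3 at 1.10 (0.45, adjusted p = 0.011), NOG at 0.80 (0.23, adjusted p = 0.057), TWSG1 at -0.94 (-0.31, adjusted p = 0.16) and SMURF2 at -0.81 (-0.16, adjusted p = 0.25). Of the other targets, MSX1 was at 0.86 (0.28, adjusted p = 0.053) and HEY1 at 0.42 (0.32, adjusted p = 0.11).

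The E proteins were at 0.65 for TCF3 (0.19 after the correction, adjusted p = 0.10), -0.84 for TCF4 (0.0063, adjusted p = 0.97) and -1.33 for TCF12 (-0.69, adjusted p = 0.017). TGFB2 was at -1.07 (-0.50, adjusted p = 0.049).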

How the results depend on the processing

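The number of the 10 genes called between KD and control cells with TNF-α was 0 under all alternatives run, and without TNF-α it stayed within 1.5 times the 7 reported, BMP4 included. The share of all genes called without TNF-α went from 29.5 to 69% over these settings, and the genes called were not the same throughout. With the GC and length correction, which called 52.3% of all genes, BMPR1A, ID2 and SMAD6 were no longer called, while BMP2 and SMAD7 were. The count of the interaction went from 5 to 2 under the GC and length correction, and the share of all genes tested from 46.1 to 35.6%. The count of other BMP pathway genes called with TNF-α in control cells was 9, where 4.24% of all genes tested were called. It went to 4 with no filter on low values (1.13% of all genes) and to 2 with only the libraries compared (1.44%). When libraries were left out singly it had a range of 2 to 9, and the share of all genes one of 1.39 to 12.9%. The highest share was without the second unstimulated control library, where 3 of the pathway genes were called higher and 6 lower. With no filter 42 of the pathway genes were tested in place of 35, among 32613 genes, and with fewer libraries fewer set the spread.

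In KD cells with TNF-α, the GC and length correction turned ID1 to -0.34, SMAD7 to -0.21, BMP5 to 0.31, BMP8A to -0.34, BMPR1B to 0.33, ACVR2A to 0.072, SMAD1 to 0.025, SMAD4 to 0.030, NOG to -0.25, CHRD to -0.16, SOSTDC1 to 0.013, TCF4 to 0.0046, TGFB2 to 0.18 and SMAD2 to 0.33. For KD against control without TNF-α it turned BMPR1A to -0.0024, SMAD7 to 0.29, BMPR1B to -0.38, ACVR2A to -0.14, ENG to 0.22, SMAD1 to -0.029, SMAD4 to -0.30, CHRD to 0.024, SOSTDC1 to -0.18, ATOH8 to 0.10, TCF4 to -0.071 and SMAD2 to -0.38. In the interaction it turned BMP2 to -0.20, BMPR1A to 0.0010, ID2 to -0.15, SMAD6 to -0.14, SMAD7 to -0.041, TCF4 to 0.0063 and BIRC3 to 0.079. The correction removes by construction what follows GC content or length, and why the libraries differ along them was not tested.

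Scaling to total reads, which shifts the median of all genes by 0.13 for KD against control without TNF-α and by -0.19 with TNF-α in KD cells, turned SMAD7 to 0.10 in the former and ID1 to -0.19, SMAD7 to -0.038 and NOG to -0.037 in the latter. In the interaction it turned BMP2 to -0.15, ID2 to -0.057 and SMAD6 to -0.10. Upper-quartile scaling turned ID1 with TNF-α in KD cells to -0.018 and the interaction of BMP2 to -0.022. With a library left out, the interaction of BMP2 lay between -0.0035 and 0.20, and for KD against control with TNF-α BMPR1A lay between -0.037 and 0.025, BMPR2 between -0.053 and 0.026, ID1 between -0.062 and 0.0023 and ID3 between -0.072 and 0.045.

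A replicate block left 7 genes called without TNF-α and 0 with TNF-α, took the interaction from 5 to 4, where it ended the call of SMAD7 (adjusted p = 0.068), and took the other BMP pathway genes with TNF-α in control cells from 9 to 7. Of all genes tested, the block fit called 59.1, 0.0605, 45 and 3.42% in these comparisons, in that order. Pairs of groups with the same replicate numbers had correlations of their deviations between -0.19 and 0.35, the highest for unstimulated control with unstimulated KD cells. Groups of 2 libraries allow no test for outlying libraries, and GREM1 is below what this depth can compare.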
